A study of Bos taurus with 4 samples.

Results

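Elongation factors and the proteins that meet the new chain at the ribosome were followed in sperm RNA of Murrah buffalo bulls, in 9 genes: EEF1A1, EEF1B2, EEF1D, EEF1G, EEF1E1, EEF2, TPT1, NACA and BTF3. All sample probes of the array whose gene name is one of the 9 were taken, which gave 43 of the 51282 probes, for 9 of the 32429 gene names. RNA of Percoll-selected spermatozoa from breeding bulls was pooled from 2 bulls at a time, giving 2 high-fertile and 2 low-fertile pools. Bulls were graded by field conception rate, at least 1 SD above the mean of the evaluated bulls for high-fertile and at least 1 SD below for low-fertile, and their age and the bulls in each pool were not given in the sources used here. The 4 pools were labelled with Cy3 from an oligo dT primer and hybridised to 4 arrays of 1 slide carrying cattle probes, and the labels name Bos taurus as the organism while their descriptions say buffalo, so each signal is that of buffalo RNA on a cattle sequence. No treatment was applied, and the question of the comparison was which sperm transcripts differ with bull fertility.

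Elongation factor eEF1A, encoded by EEF1A1, carries each aminoacyl-tRNA to the ribosome as a GTP complex, and the eEF1B complex, with the products of EEF1B2, EEF1D and EEF1G, returns it to the GTP form. eEF2 moves the ribosome along the mRNA after each peptide bond, and NACA and BTF3 form the heterodimer that binds nascent chains as they leave the exit tunnel. Ejaculated spermatozoa are regarded as almost silent in cytoplasmic translation, and the RNA they hold is largely carried over from spermatogenesis.

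The probes are 60 bases long and several of the same gene share bases or differ in a few of them, so the stretches on which the comparisons below turn are printed here, 5′ to 3′, from the sequence column of the array files, with positions on the cattle build Btau_3.1. For EEF1A1, the probe starting at base 262 of the transcript (chr9:12616153-12616212, minus strand) is printed whole, and the last 30 bases of the one starting at base 1588 (chr9:12614349-12614408, minus strand), the only one of the gene that was lower.
EEF1A1 262: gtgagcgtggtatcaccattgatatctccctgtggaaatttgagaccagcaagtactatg
EEF1A1 1588: atgttttgtgtgtggcagtttaagttatta
For EEF2, the 30 bases below stand in both the probe starting at base 3103 (chr7:18634589-18634648, plus strand) and the one starting at base 3127, which the files place on the minus strand at chrX:23525466-23525579.
EEF2 3103 and 3127: actgagcacctccagctgtattagtgccat
For TPT1, capitals mark the 26 bases that the probes starting at base 453 and 487 share, and in the probe starting at base 759 (chr12:14460225-14460284, minus strand) the hexamer AATAAA, the canonical polyadenylation signal.
TPT1 453: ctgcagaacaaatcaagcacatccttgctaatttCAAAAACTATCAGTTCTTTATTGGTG
TPT1 487: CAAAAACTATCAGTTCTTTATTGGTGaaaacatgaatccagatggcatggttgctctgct
TPT1 759: tcatgtaggttgtctaaaAATAAAacgcat
For NACA, capitals again mark AATAAA, in the probe starting at base 866 (chr5:61309617-61309676, plus strand), which was lower, and in the one starting at base 76 (chr5:61299281-61299340, plus strand), which did not pass the test.
NACA 866: atcattAATAAAgttatggcttcttgttgg
NACA 76: tggagtgtggAATAAAacgaatccctgggc
In the pairs of EEF1B2 (chr2:99571659-99571718 and chr2:99571662-99571721, plus strand), BTF3 (chr20:8480528-8480587 and chr20:8480523-8480582, minus strand) and EEF1D (chr14:938301-938360, plus strand, for the probe starting at base 1087), capitals mark the bases at which the probes of a pair differ.
EEF1B2 750: tccatcatgGTtcagtgcccAtaaataaaa
EEF1B2 753: tccatcatgTAtcagtgcccTtaaataaaa
BTF3 777: agaagcctaagaataaagtTtgagacaaag
BTF3 782: agaagcctaagaataaagtGtgagacaaag
EEF1D 1060: acattgctgctttcaacaagaActgagccc
EEF1D 1087: acattgctgctttcaacaagaTctgagccc
Counted from the 5′ end of the first probe of a pair, with its base first, the differences are G40T, T41A and A51T for EEF1B2, T50G for BTF3 and A49T for EEF1D. Whether a probe lies in an exon or a UTR was not analysed here, since no annotation of this build was used.

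Transcripts of NACA, TPT1, EEF1A1, EEF1B2 and EEF2 were lower in the low-fertile pools at 1 or more probes that rose well above background on all 4 arrays, and no probe of the 9 genes was higher. These are 5 of the 8 members with a probe of that kind, against 10% of the 10639 such genes on the array. A gene counts here if any of its probes of that kind was lower. The 8 members hold 25 such probes and the 10639 genes 12552, so the members had more probes a gene and the shares are not on equal terms. EEF1A1 counts through 1 of 8 such probes and EEF2 through 1 of 5. BTF3 was called lower only at 2 probes that were above background in the high-fertile pools alone. Its 1 probe measured on all 4 arrays did not pass. Counted with BTF3, 6 of the 9 genes were lower, against 19.2% of all 16685 tested genes and 32.1% of the 3129 with 2 or more tested probes. NACA and TPT1 were lower at most of their tested probes, EEF1B2 at 2 of 3, BTF3 at 2 of 3 that were both dim in low-fertile pools, EEF1A1 and EEF2 at 1 probe each, and EEF1D, EEF1G and EEF1E1 at none. Of the 43 probes, 36 could be tested, meaning that the scanner marked them as well above background on each array of the high-fertile pair, the low-fertile pair or both. Of these, 14 were lower in low-fertile pools in limma at an adjusted p under 0.05 over all probes, 0 were higher, and 22 did not pass. Among all 21033 tested probes 17.6% were lower and 9.22% higher, or 26.8% in either direction. The median difference, low-fertile minus high-fertile, was -0.16 on the log2 scale over the 36 member probes and -0.00 over all tested probes. Over the 25 member probes well above background on all 4 arrays it was 0.02, with 11 negative and 14 positive. Over all probes of that kind it was 0.15. The groups did not overlap at 16 of the 36 probes with the low-fertile pair below, against 35.5% of all probes, and at 8 with it above, against 33.6%. The 2 pools of a group came from different bulls, and the p-values measure the spread between such pools. No probe of the array passed with the methods' t-test after the same adjustment, or with no filter on dim probes, while 14 member probes had an unadjusted p under 0.05 in each of these, of 6084 and 9278 probes in all. A lower signal from fewer spermatozoa that carry a transcript and from less of it in each cannot be told apart in pooled RNA.

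The filter has a part in these counts. Of the 36 probes, 25 were well above background on all 4 arrays and 11 passed through the high-fertile arrays alone, a route that selects probes dimmer on the low-fertile side. Of the 25 probes measured on all 4 arrays, 7 were lower (NACA 2, TPT1 2, EEF1A1, EEF1B2 and EEF2 1 each), while 9.89% of all probes of that kind were lower and 13.2% higher. The 7 probes that were not tested are 2 of EEF1D, 2 of EEF1G and 1 each of EEF1A1, TPT1 and BTF3. On the 4 arrays, 36, 37, 35 and 25 of the 43 probes were well above background, and the lowest of these numbers is that of low-fertile pool 2, on whose array 13033 of all probes were above it, against 23228 to 25642 on the other arrays. By 1 probe a gene, the tested one with the highest mean normalized signal, EEF1B2, EEF2, TPT1 and NACA were lower, or 4 of 9 genes with a median difference of -0.53, against 16.6% of the 16685 tested genes and a median of 0.01. With the median over the tested probes of a gene in its place, EEF2 was at 0.011 (limma adjusted p = 0.960) and no longer lower and TPT1 was at -0.55 (adjusted p = 0.0471), while BTF3 was called lower through its 2 probes that were not well above background in low-fertile pools.

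**Figure D1:**
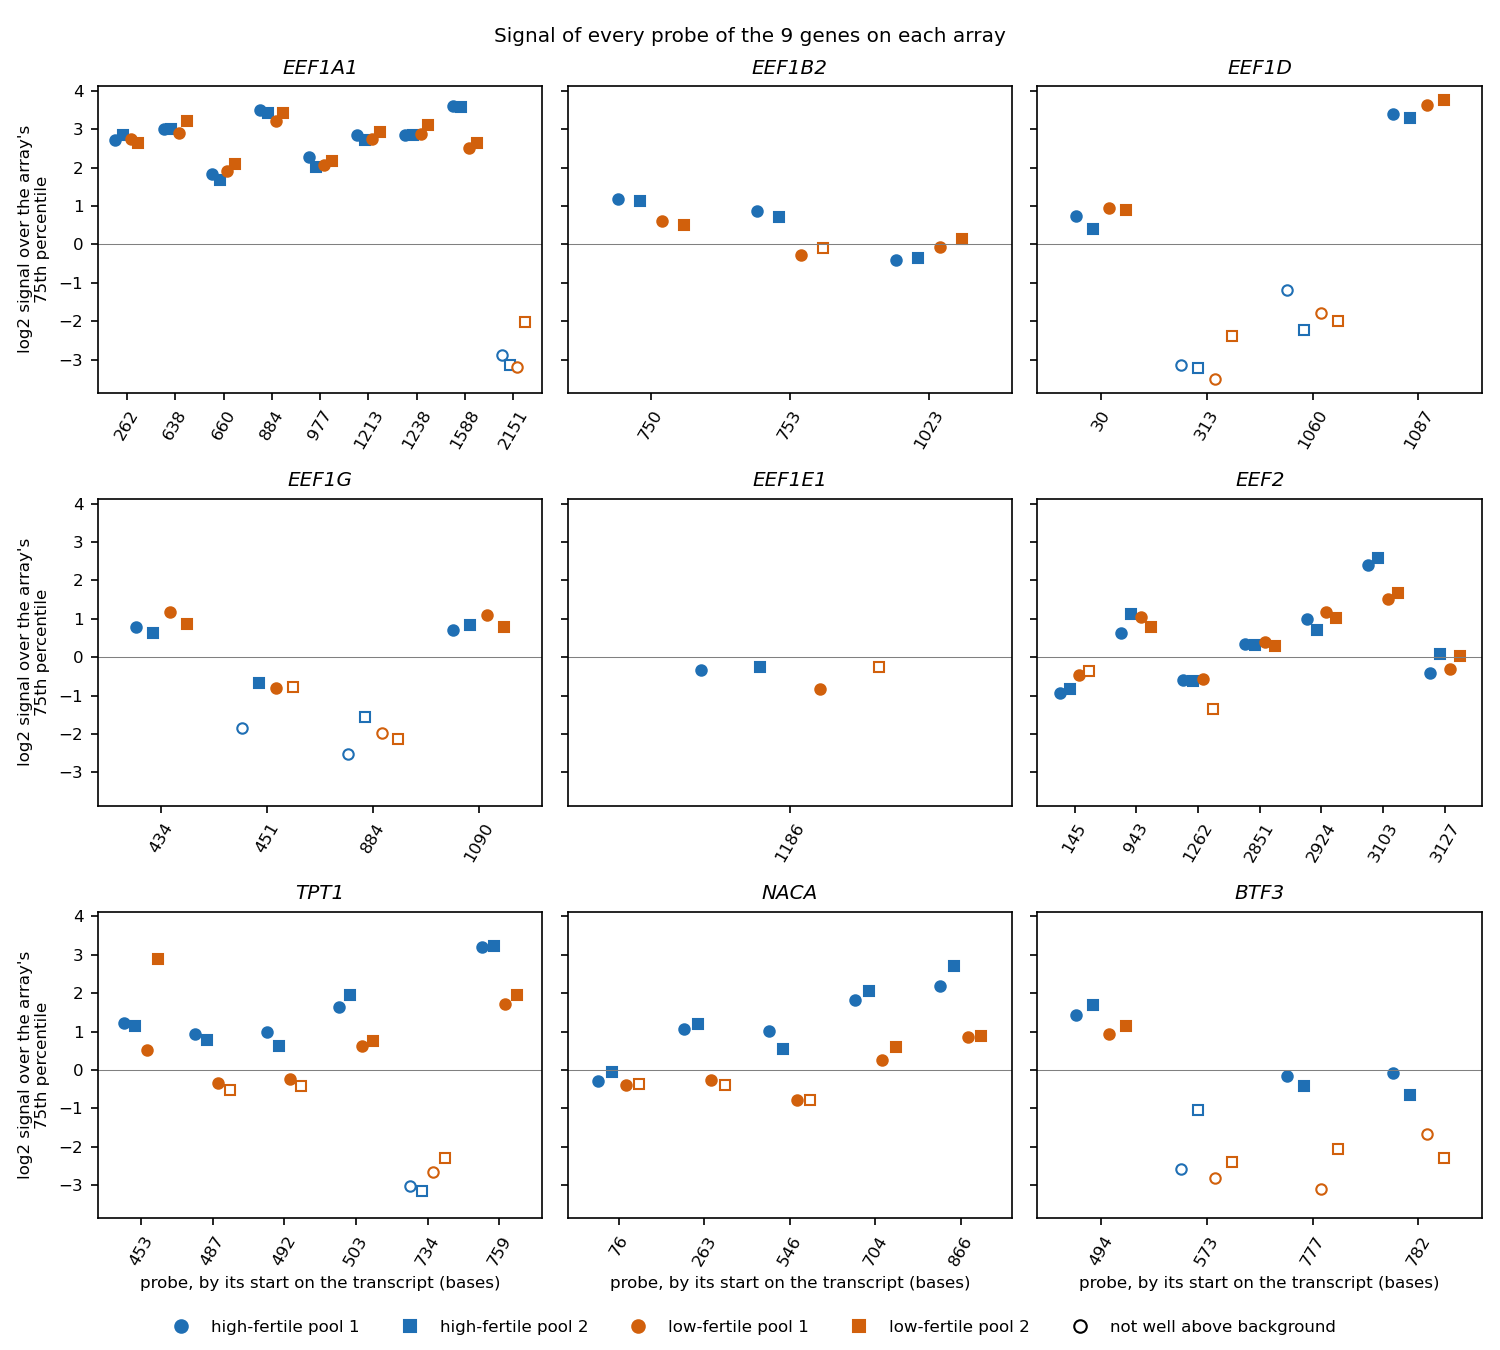
Normalized signal (log2 of the processed signal minus the 75th percentile of the array, vertical axis) of each of the 43 probes, by the base at which the probe starts on its transcript (horizontal axis), with 1 point for each pool and open symbols where the probe was not well above background. In TPT1 and NACA the low-fertile points lie below the high-fertile ones at most probes, while in EEF1A1 they do so only at base 1588 and lie slightly above at bases 660 and 1238.

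EEF1A1, the tRNA-delivering factor, had 9 probes, and 1 of them was lower in low-fertile pools. At the probe starting at base 1588 the processed signal, in arbitrary units, was 443 and 447 for the high-fertile pair and 209 and 205 for the low-fertile pair. The low-fertile values were 49.4% of the high-fertile ones, with no overlap between the groups. The log2 difference was -1.02 (SE 0.146, n = 2 pools a group, adjusted p = 0.00742 in limma). At the other 7 tested probes, which start at bases 262 to 1238, the differences ran from -0.13 to 0.25 and none passed the test, though at bases 660 and 1238 both low-fertile values lay above the high-fertile ones. At base 262 the signals were 243 and 266 against 248 and 202, and at base 884 they were 412 and 395 against 344 and 353. After scaling, the groups overlapped at both. The 95% confidence intervals of these 7 differences reached from -0.51 at the lowest to 0.64 at the highest, so the fall seen at base 1588 lies outside each of them. Within each array, the log2 ratio of the probe at base 1588 to that at base 262 was 0.87 and 0.75 for the high-fertile and -0.25 and 0.02 for the low-fertile arrays, a shift of -0.92. With 2 pools a group the smallest two-sided p of the exact permutation test is 0.333, which this ratio reached. For EEF1A1 and TPT1 probes the array annotation lists up to 3 Ensembl transcripts each, and the part of close copies of these genes in the signal was not tested. The ninth probe of EEF1A1, which the files place at chr18:2332125-2332184 on the plus strand, away from the others, did not rise well above background on any of the 4 arrays.

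**Figure D2:**
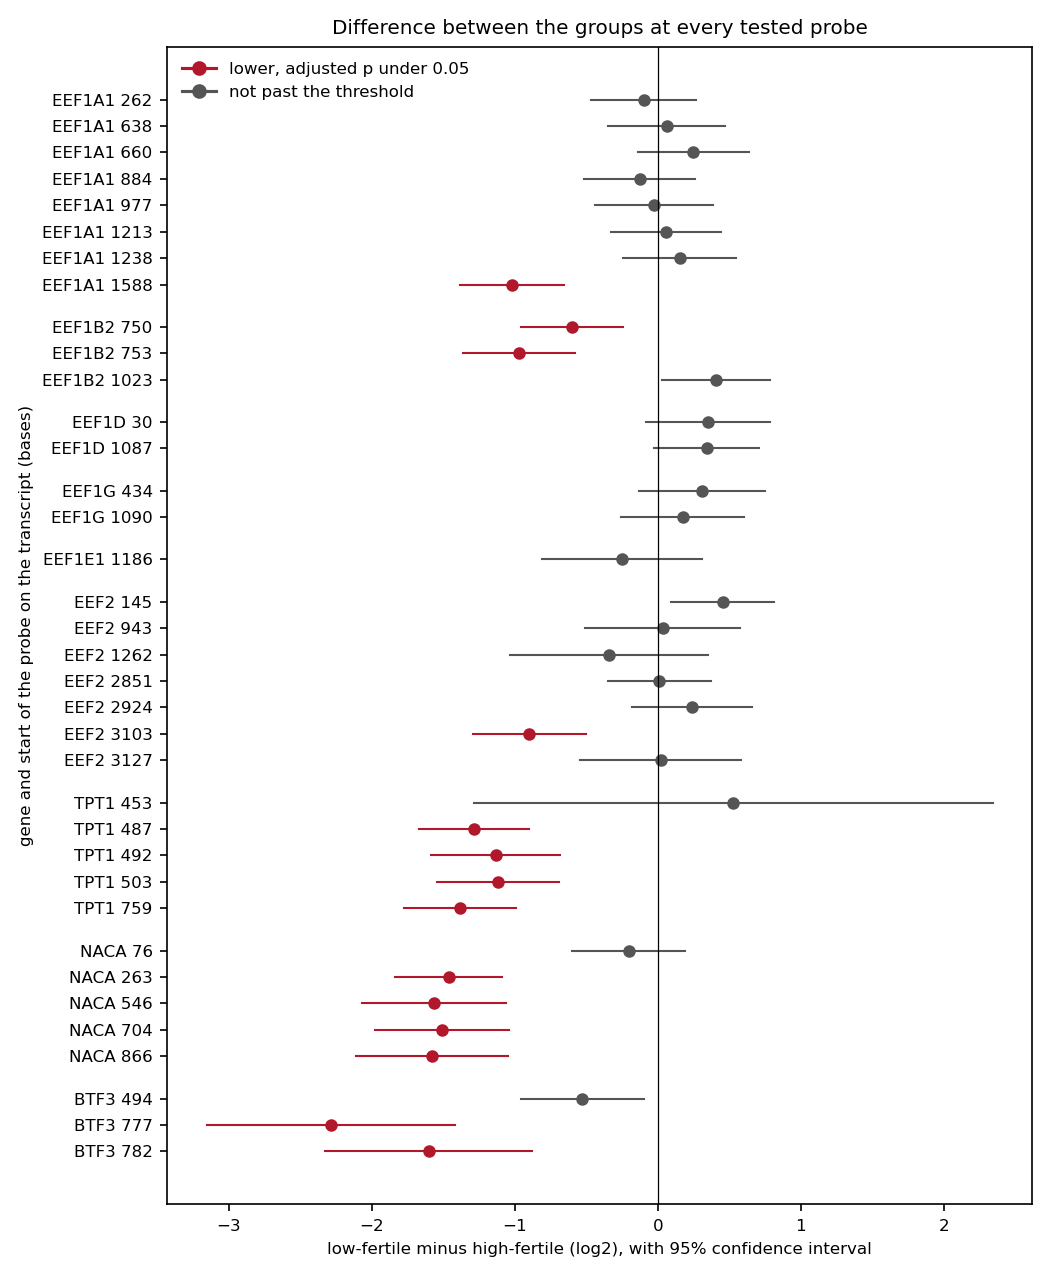
Difference between low-fertile and high-fertile pools (log2, horizontal axis) with its 95% confidence interval at each of the 36 tested probes, named by gene and start base, with the 14 probes past an adjusted p of 0.05 in red. The intervals of NACA and TPT1 lie below 0 at 4 probes each, and no interval of EEF1D or EEF1G does.

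Among the genes of the exchange complex, EEF1B2, the catalytic beta subunit, was lower and the others did not pass the test. The EEF1B2 probe starting at base 750 read 83.5 and 80.9 (high-fertile) against 56.1 and 46.4 (low-fertile), a log2 difference of -0.60 (SE 0.143, adjusted p = 0.0318 in limma). Its neighbour starting at base 753, which shares 57 bases with it but for the 3 differences printed above, read 66.5 and 61.0 against 30.5 and 30.8 (-0.97, SE 0.157, adjusted p = 0.0103), and was not well above background in low-fertile pool 2. In both probes the low-fertile pools lay below the high-fertile pools. With normexp background correction both stayed lower by smaller amounts, -0.19 at base 750 (adjusted p = 0.0429) and -0.43 at base 753. The call at base 750 was lost when any 1 of the 4 pools was left out (-0.65 to -0.56, adjusted p 0.0572 to 0.135), and the one at base 753 when high-fertile pool 1 was left out (-0.90, adjusted p = 0.0586). In such fits the remaining pool of a group is assumed to vary like those of the other group. The remaining EEF1B2 probe, designed on an expressed sequence tag with no position in the files, went the other way without passing the test, with 27.8 and 28.9 against 35.3 and 35.7 (0.41, SE 0.152, adjusted p = 0.101). The probes of 1 gene therefore disagreed in sign.

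EEF1D, the delta subunit, was read by 2 tested probes, and both had higher values in low-fertile pools without passing the test. The probe starting at base 1087 gave 387 and 367 for high-fertile against 457 and 443 for low-fertile pools (0.34, SE 0.147, adjusted p = 0.140 in limma, 95% confidence interval -0.03 to 0.71). The probe starting at base 30 gave 61.1 and 48.9 against 71.5 and 60.5 (0.35, adjusted p = 0.182). After scaling, both low-fertile pools lay above both high-fertile pools at each of these probes. A further probe, starting at base 1060, shares 33 bases with that at base 1087 except at A49T and did not rise well above background on any of the 4 arrays, with 7.85 to 16.2 units.

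EEF1G, the gamma subunit that anchors the complex, gave 63.2 and 57.9 for high-fertile against 84.3 and 59.2 for low-fertile pools at the probe starting at base 434 (0.31, SE 0.175, adjusted p = 0.237). At base 1090 it gave 59.6 and 66.9 against 79.5 and 56.6, and the groups overlapped. EEF1E1, which encodes a scaffold protein of the multi-tRNA synthetase complex, had 1 probe, with 29.4 and 31.0 against 20.9 and 27.5 (-0.25, SE 0.224, adjusted p = 0.442). Its value was not well above background in low-fertile pool 2, and its 95% confidence interval, -0.81 to 0.31, includes both a fall and a rise.

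EEF2, the translocating factor, resembled EEF1A1 in that 1 of its 7 probes was lower. The probe starting at base 3103, printed on the array as 2 spots, read 192 and 224 in the pools of high and 106 and 104 in those of low fertility. That is 53.7% of the high-fertile level with no overlap, a log2 difference of -0.90 (SE 0.158, adjusted p = 0.0131 in limma). Without high-fertile pool 2 the difference was -0.80 and did not pass (adjusted p = 0.0747). At the other 6 probes the differences ran from -0.34 to 0.46 and none passed. The lowest, at base 1262, was not well above background in low-fertile pool 2, and without low-fertile pool 1 it was at -0.74. Of the 6, the nearest before base 3103 start at base 2851 and base 2924. At base 2924 the pools read 73.3 and 61.0 against 83.1 and 66.4, and at base 2851 they read 46.3 and 46.6 against 49.0 and 39.7. At base 145, where the low-fertile pools were the higher ones, they read 19.4 and 20.9 against 26.7 and 25.2 (0.46, SE 0.144, adjusted p = 0.0691 in limma). The probe at base 145 also was not well above background in low-fertile pool 2. The probe starting at base 3127, which the files place on chromosome X with no Ensembl transcript listed, shares 36 bases with that at base 3103 and read 27.7 and 39.3 against 30.0 and 33.1, with overlapping groups and a difference of 0.02 (adjusted p = 0.949). Whether it reads a copy elsewhere in the genome was not tested.

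TPT1, which encodes the translationally controlled tumor protein, an abundant protein that binds eEF1A and eEF1B, was lower at 4 of 5 tested probes. At the probe starting at base 759 the signals were 337 and 345 for high-fertile against 121 and 126 for low-fertile pools, which is 38.3% of the high-fertile level. The log2 difference was -1.38 (SE 0.156, adjusted p = 0.00411 in limma). At base 503 they were 115 and 143 against 56.7 and 55.0, a difference of -1.12 (SE 0.171, adjusted p = 0.00872). The groups were apart at both probes, and on all 4 arrays the probes were well above background. The probes starting at base 487 and 492 differed by -1.28 and -1.13 and were not well above background in low-fertile pool 2. The probe at base 487 shares 44 bases with that at base 503, so the readings at bases 487 and 503 are of overlapping sequence. With normexp background correction the 4 probes remained lower, at -0.49 to -1.04.

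The fifth TPT1 probe, starting at base 453, did not follow the others on 1 array. Its signals were 85.6 and 82.7 for the high-fertile pair, 53.6 for low-fertile pool 1 and 244 for pool 2 of that group, which gave a difference of 0.53 with an SE of 0.726 (adjusted p = 0.615 in limma). The probe at base 487, which holds the 26 shared bases printed above, read 22.9 on that array. There, 2 of the 6 spots nearest to the probe at base 453 were also over 2 log2 units above the mean of the other arrays. With spots in such patches left out, the difference was -0.65 (adjusted p = 0.0574), and without low-fertile pool 2 it was -0.66 (adjusted p = 0.0652). The remaining TPT1 probe, on an expressed sequence tag, stood at 4.17 to 6.68 units and did not rise well above background on any of the 4 arrays.

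NACA, the alpha subunit of the nascent polypeptide-associated complex, was lower at 4 of its 5 probes, 2 of which passed the filter through the high-fertile arrays alone. At the probe starting at base 866 the signals were 166 and 244 for high-fertile against 67.3 and 60.3 for low-fertile pools, and the log2 difference was -1.58 (SE 0.213, adjusted p = 0.00634 in limma). At base 704 they were 130 and 154 against 44.4 and 49.7, a difference of -1.51 (SE 0.187, adjusted p = 0.00512). The low-fertile level was 33.5% and 35.2% of the high-fertile level at these 2 probes, which were well above background on all 4 arrays. At base 263 the signals were 77.3 and 85.9 against 31.0 and 25.1 (-1.46), and at base 546 they were 74.7 and 54.2 against 21.7 and 19.0 (-1.56), and at both the probe was not well above background in low-fertile pool 2. The 4 lower probes start at bases 263 to 866 and share no sequence, and their differences ran from -1.58 to -1.46. With normexp background correction the 4 remained lower, at -0.62, -0.65, -0.99 and -1.13 at bases 263, 546, 704 and 866. At base 76, placed at chr5:61299281-61299340, upstream of the other probes, the signals were 29.8 and 35.9 against 28.2 and 25.5. The difference of -0.20 did not pass the test (SE 0.158, adjusted p = 0.377 in limma). This probe also was not well above background in low-fertile pool 2 and passed the filter through the high-fertile arrays alone.

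BTF3, the beta subunit that pairs with NACA, was lower at 2 of 3 tested probes, and these 2 are near copies of each other. They share 55 bases apart from T50G. The probe starting at base 777 was not well above background in low-fertile pools. Its signals were 32.8 and 27.8 for high-fertile against 4.35 and 7.81 for low-fertile pools (adjusted p = 0.00849 in limma). At base 782 they were 34.6 and 23.4 against 11.7 and 6.71, again not well above background in low-fertile pools (adjusted p = 0.0143), a call lost without high-fertile pool 1 (adjusted p = 0.0581). No fold is given for these 2 probes, whose low-fertile values did not rise well above background. Member probes of up to 30.8 units were not well above background in low-fertile pool 2. Both lower BTF3 probes passed the filter through the high-fertile arrays alone, and with normexp background correction, which lifts dim values, their differences were -0.53 and -0.43, so the size depends on the correction. The BTF3 probe starting at base 494, the one measured on all 4 arrays, read 99.0 and 121 against 71.0 and 72.2. The groups did not overlap, and the difference of -0.53 did not pass the test (SE 0.173, adjusted p = 0.0755), though it did with probes above background on all 4 arrays (0.0362), with an intensity trend in the limma prior (0.0380) and with spike-in scaling (-0.90, 0.0154).

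Where several probes read 1 gene, the place of the probe on the transcript went with its value in some genes. In EEF1A1 the lower probe is the last of the 8 tested along the transcript, and in EEF2 it is the last of those placed on chromosome 7. In NACA the probe nearest the start is the one that did not pass, but it was not well above background in low-fertile pool 2. In TPT1 the 4 lower probes gave -1.12 to -1.38 over start bases 487 to 759. Of these, the probe at base 492 is placed by the array annotation at chr12:14460212-14460256, which overlaps the place of the probe at base 759. Its start base is therefore no guide to its position. Over all RefSeq transcripts with at least 2 tested probes that start 300 or more bases apart, 1890 in number, the last probe had the lower difference in 58.5%, with a median of last minus first of -0.16. The last probe was lower in the test and the first was not in 16.5% of them, and the reverse held in 5.56%. The labelling started from an oligo dT primer, and its part in these differences was not tested. A spread between probes of this size is common on the array: the range over the tested probes was 1.26 in EEF1A1, 1.35 in EEF2, 1.37 in NACA and 1.91 in TPT1, against a median of 1.22 over the 85 genes with 5 or more tested probes. The range of TPT1 includes the probe at base 453, which was high on the array of low-fertile pool 2 alone.

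**Figure D3:**
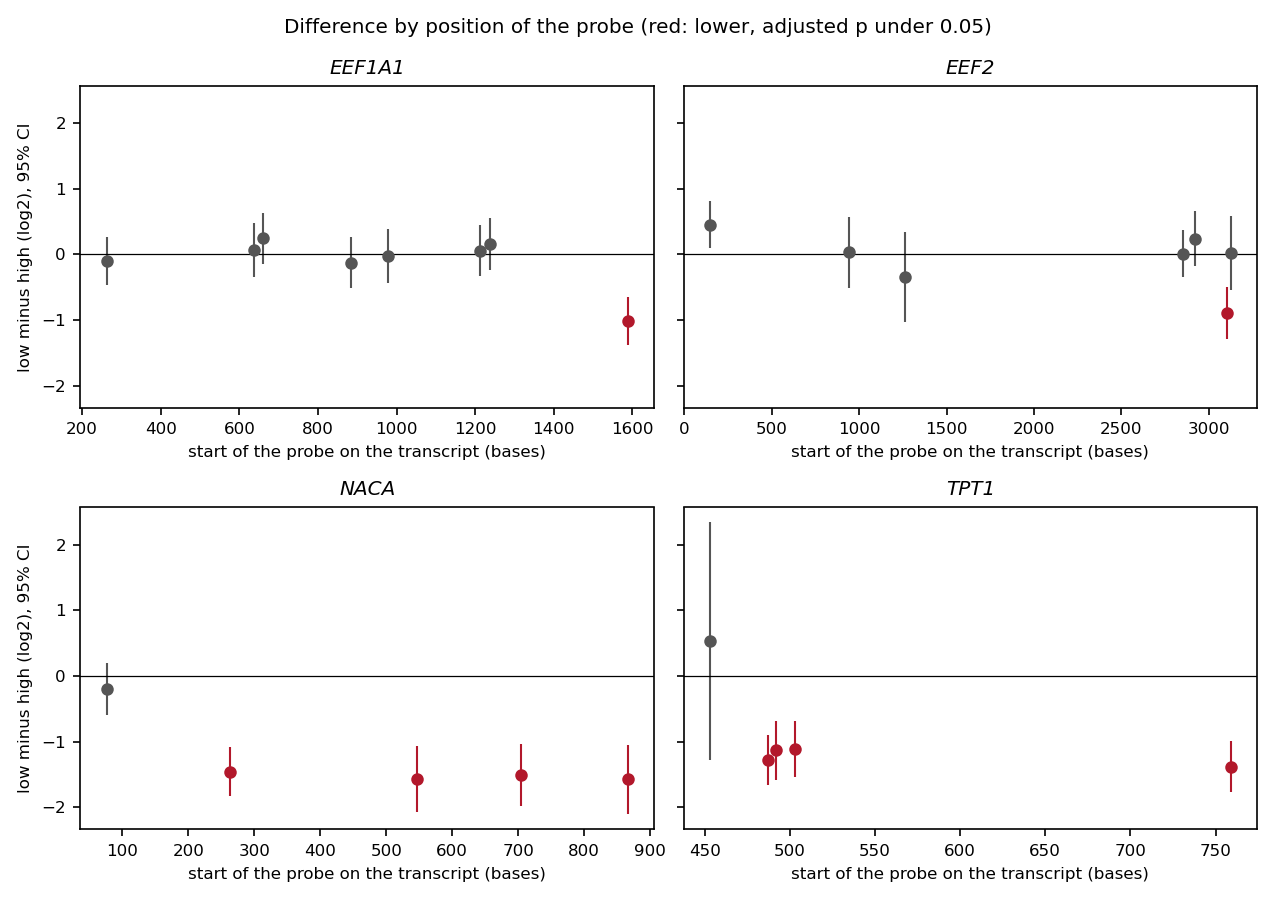
Difference between low-fertile and high-fertile pools (log2, vertical axis, bars 95% confidence intervals) by the start of the probe on the transcript in bases (horizontal axis) for EEF1A1, EEF2, NACA and TPT1, with probes past an adjusted p of 0.05 in red. EEF1A1 lies between -0.13 and 0.25 up to base 1238 and at -1.02 at base 1588, and the NACA probes from base 263 on lie at -1.46 to -1.58, those at bases 263 and 546 being dim in low-fertile pool 2 (-0.62 to -1.13 for the 4 with normexp background correction).

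The letters AATAAA were searched in all probes as printed and on the opposite strand. As printed they stand in 10 of the 43 member probes and in 8.35% of all 51282 probes, and on the opposite strand in 4 and in 3.30%. Of the 8 member probes with AATAAA that were tested, 6 were lower, namely both of EEF1B2, TPT1 at base 759, NACA at base 866 and both of BTF3, while EEF2 at base 3127 and NACA at base 76 did not pass. Of these 6, the probes of EEF1B2 at base 753 and of BTF3 passed the filter through the high-fertile arrays alone, and the EEF1B2 and BTF3 pairs are near copies, so the count is not one of independent probes. Of the 28 tested member probes without these letters 8 were lower. Over all tested probes the share that was lower was 20.4% with AATAAA and 17.3% without.

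The partners of these factors were taken from a list of 53 other genes of elongation, termination, recycling and nascent chain handling, of which 43 are on the array and 25 had a tested probe. By their brightest tested probe, 9 were lower, 1 was higher and 15 did not pass, with a median of -0.25, against 16.6% lower, 9.53% higher and a median of 0.01 over all tested genes. All 9 lower genes passed the filter through the high-fertile arrays alone, and 0 were lower among probes well above background on all 4 arrays, so the count says little of the list. SRP14, a protein of the signal recognition particle, read 118 and 112 for high-fertile against 19.2 and 22.5 for low-fertile pools (-2.38, SE 0.186, adjusted p = 0.00229 in limma). GUF1, a mitochondrial elongation factor, read 25.8 and 24.1 against 8.42 and 7.14 (adjusted p = 0.00275). GFM2, which acts in mitochondrial ribosome recycling, read 23.5 and 29.1 against 8.18 and 7.55 (adjusted p = 0.00327), and like GUF1 was not well above background in either low-fertile pool. The pools of the groups were apart in all 3.

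AIMP1, which with EEF1E1 and AIMP2 scaffolds the multi-tRNA synthetase complex, read 41.2 and 49.5 against 17.0 and 14.4 (-1.44, SE 0.158, adjusted p = 0.00391 in limma). AIMP2 was lower as well (-1.33, adjusted p = 0.0303). Each was well above background in 1 of the 2 low-fertile pools, and their difference from EEF1E1 was not tested. The remaining lower genes, named outside the rule of smallest adjusted p, were SRP54, NAA20, GSPT1 and DPH2. SRP54, of the signal recognition particle, read 20.3 and 26.4 against 5.21 and 6.44, not well above background in either low-fertile pool. NAA20, an N-terminal acetyltransferase, read 64.0 and 45.2 against 17.9 and 7.68, and was well above background in 1 low-fertile pool. GSPT1, the release factor eRF3a, read 26.8 and 24.9 against 11.9 and 11.4, the low-fertile values not well above background. DPH2, which takes part in the diphthamide modification of eEF2, differed by -0.99 and was well above background in 1 low-fertile pool. The 1 higher gene was EEFSEC, the selenocysteine-specific elongation factor, with 68.4 and 59.5 against 92.3 and 88.2 (0.59, SE 0.157, adjusted p = 0.0452), a call lost without either high-fertile pool or without low-fertile pool 2. Chosen as relatives of the members, EEF1A2, the tissue-restricted paralog of EEF1A1, had a difference of 0.45 and EIF5A, a factor that eases stalled elongation, one of 0.21, and neither passed. BTF3L4, the paralog of BTF3, did not pass either, at 0.00 (SE 0.201).

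**Figure D4:**
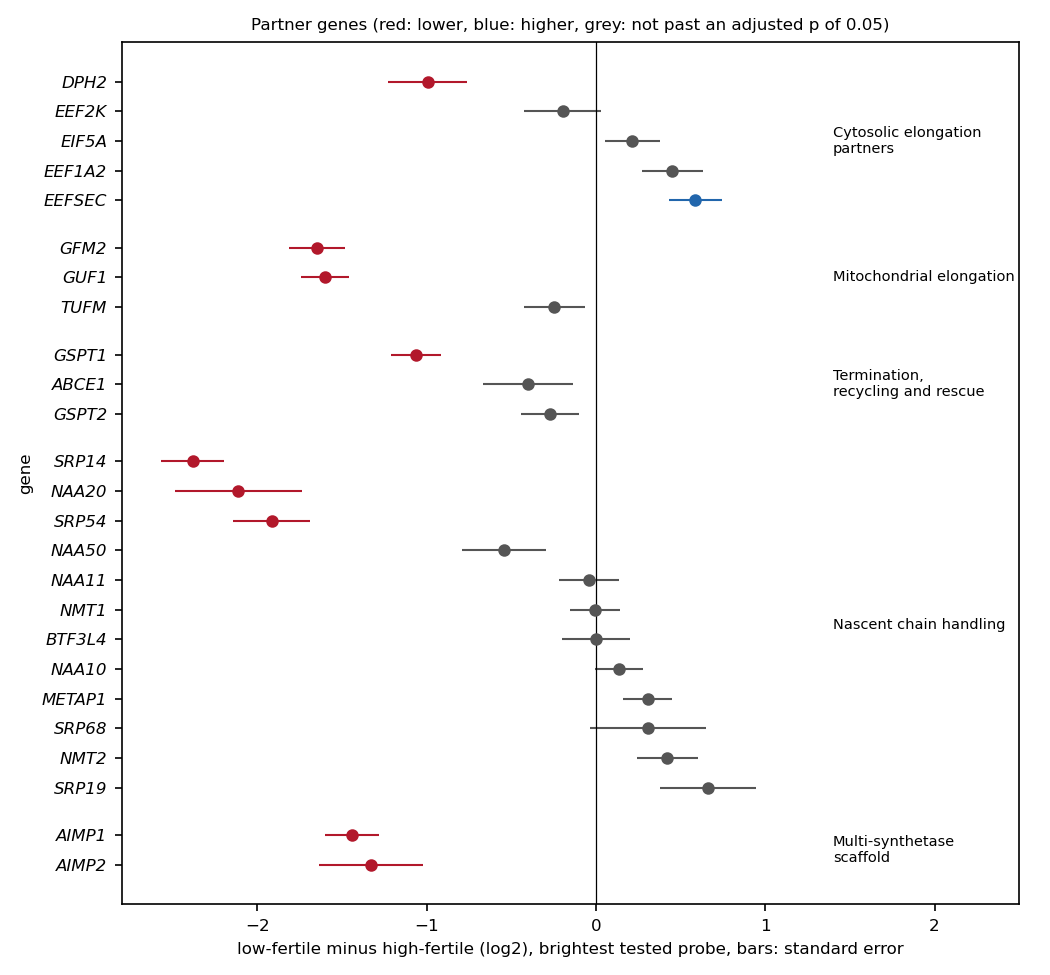
Difference between low-fertile and high-fertile pools (log2, horizontal axis, bars standard errors) at the brightest tested probe of the 25 partner genes, grouped by role, with lower genes in red and the higher gene in blue. Genes of nascent chain handling spread from -2.38 (SRP14) to 0.66 (SRP19).

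Against the other translation genes read in the same way, the median of the members, -0.53, lay between those of the ribosomal proteins and the initiation factors. Of 73 cytosolic ribosomal protein genes 42 were lower and 3 higher, with a median of -0.69. Of 33 initiation factor genes 9 were lower and 1 higher, with a median of -0.27. Over all tested genes 16.6% were lower and 9.53% higher, with a median of 0.01. How many ribosomal protein and initiation factor genes passed the filter through the high-fertile arrays alone was not counted. The differences between these lists were not tested. By the pattern over the 4 arrays, the 5 genes nearest to the brightest EEF1A1 probe among 5269 candidates were C22H3orf18, HUNK, CHD6, MRAP and MPDZ, at distances of 0.01 to 0.04 on the log2 scale. Their differences between the groups ran from -0.15 to -0.10, and that of the EEF1A1 probe was -0.13. This nearness follows from the choice of the 5 genes by the same 4 values.

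Markers of the labelled cells and of other cells were read beside these results. Of 19 sperm markers, 5 were well above background on all 4 arrays (ODF1, ACR, CATSPER1, PRM1 and TNP1) and 8 on none, AKAP4 and SMCP among them, and the summed signal of the list was 871 to 1048 units with no marker lower and PRM1 higher (0.67, adjusted p = 0.0231 in limma). All 5 markers of earlier germ cells on the array were above background on none. Of 12 leukocyte markers 7 were above background on all 4 arrays and CD3E and S100A9 on none, and their summed signal was 20778 and 21813 in high-fertile and 28189 and 29070 in low-fertile pools, carried by LYZ and PTPRC, of which PTPRC was higher (0.78, adjusted p = 0.0160). Of 6 epithelial markers 4 were above background on all arrays and CDH1 and EPCAM on none, with sums of 845 to 895. Of 3 red cell markers, HBB was higher (1.24, adjusted p = 0.0118 in limma) and ALAS2 was above background on none. HBA, the brightest and above background on all 4 arrays, did not pass (-0.17, adjusted p = 0.705). That list summed to 173 to 294 units. The part of other cells in the falls of NACA, TPT1, BTF3, EEF1B2, EEF1A1 and EEF2 was not tested.

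The scale of the comparison and the slide set limits to it. Of the 5632 probes past the threshold, 65.6% were lower. Scaled on 7 spike-in probes instead of the 75th percentile, the median of all tested probes moved to -0.38 and 92.1% of the called probes were lower, and 17 member probes were lower, the 14 among them. The added ones were EEF1A1 at base 884 (-0.50, limma adjusted p = 0.0396), NACA at base 76 (-0.57, adjusted p = 0.0451) and BTF3 at base 494 (-0.90, adjusted p = 0.0154), and by the brightest probe 6 of the 9 genes were lower in place of 4. On the slide, high-fertile and low-fertile arrays were in different rows, and row and fertility cannot be told apart.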

How the data were processed

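Sperm RNA of 2 high-fertile and 2 low-fertile pools, each of 2 bulls, was measured on 4 one-colour arrays of 60-base cattle probes. The authors extracted the images with Agilent Feature Extraction, named in the submitters' processing notes and version 11.5.1.1 in the file headers, and used GeneSpring for a shift to the 75th percentile. The deposited scanner files hold linear intensities with background subtracted, and a deposited table gives the shifted signals as log2 values. It differed from the values used here by at most 0.03 over the member probes, with medians of -1.14, -1.14, -1.13 and -1.47 per array. The detection and outlier marks deposited per spot were used as they stand. Every column was mapped to a pool.

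From the processed signal, spots with an outlier mark were dropped, repeated spots averaged on the log2 scale and the 75th percentile over sample probes subtracted (a signal of 36.7, 37.1, 37.0 and 32.7). Across the 12552 probes marked above background on every array Pearson's r was 0.981 and 0.980 within groups and 0.924 to 0.935 between them. No member probe was saturated. The filter kept 21033 probes marked as above background throughout 1 group or the other, and these entered a limma 3.58.1 fit (R 4.3.3), with Benjamini-Hochberg adjustment over all of them, low-fertile minus high-fertile, and the script was tested on simulated data. Single ratios were tested by exact permutation. The number of arrays limits the precision.

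Member probes were all reported. Of the partner list, the 4 lower and 4 higher genes with the smallest adjusted p were to be named, and the 5 nearest patterns to EEF1A1 by Euclidean distance. The members and lists were chosen with earlier results of these data known. In all, 19 fits were run, with other scaling, background correction, filters, outlier handling, a replicate block, other tests and each pool left out. Coordinates are those of Btau_3.1 in the files. The authors' PCR and sperm function data were not analysed here.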

Additional observations from a re-analysis of the deposited data

How the results depend on the processing

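The 14 lower member probes kept a negative difference in each alternative in which they were tested (7 of them where all 4 arrays had to be above background). In all, 0 probes passed with no filter on dim probes (9278 at an unadjusted p under 0.05), with the positive and significant mark as the filter (9796) and with the methods' t-test after adjustment (6084), so under these 3 the counts for member probes, member genes and partner genes were 0 too. With probes above background on all 4 arrays, 8 of 25 member probes were lower (BTF3 at base 494 among them, adjusted p = 0.0362, as with an intensity trend in the prior, 0.0380, which gave 15 lower member probes and 5 lower genes), 0 partner genes were, and 37.5% of called probes were lower. Normexp background correction gave 1 higher member probe and gene, EEF1D (0.24, adjusted p = 0.0230), and 3 higher partner genes, and the 14 lower member probes stayed lower by smaller amounts. The 1 higher partner gene was lost (0) with spike-in scaling, without spots on bright patches, with the replicate block and with the median over the probes of a gene. The replicate numbers did not pair the pools (the differences between pools 1 and 2 of the 2 groups correlated at 0.01 across probes). The replicate block left 13 lower member probes (5331 called in all), the loss being EEF1B2 at base 750 (adjusted p = 0.0531), and changed no other member call. The percentile over detected probes also lost that probe (adjusted p = 0.0533). Leaving out 1 pool at a time gave 2640 to 4989 called probes, 11 to 14 lower and 0 to 1 higher member probes, 2 to 3 lower genes (2 without high-fertile pool 2) and 0 to 1 higher partner genes. Without low-fertile pool 1, TPT1 at base 453 was the higher member probe. There EEF2 at base 1262 was at -0.74, from 1 low-fertile value that was not well above background. The causes were not tested.

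Of the results that had passed the test, 1 turned in sign, EEF2 as a gene, at 0.011 by the median over its probes. The other turns were at probes or genes that had not passed. Spike-in scaling gave -0.029 for EEF1D (-0.019 at base 30), -0.061 for EEF1G (-0.20 at base 1090), -0.31, -0.12, -0.31 and -0.22 for EEF1A1 at bases 638, 660, 1213 and 1238, and -0.34, -0.36, -0.13 and -0.35 for EEF2 at bases 943, 2851, 2924 and 3127. Cyclic loess gave -0.036, -0.065 and -0.032 for EEF2 at bases 943, 2851 and 3127, normexp -0.024 for EEF1A1 at base 1238 and -0.027 and -0.0028 for EEF2 at bases 2851 and 3127, and the deposited table -0.00012 for EEF2 at base 2851. EEF1A1 at base 977 was 0.0073 with the percentile over detected probes and 0.0057 with quantile normalization. TPT1 at base 453 was -0.65 without spots on bright patches. With 1 pool left out, the ranges were -0.54 to 0.042 for EEF1E1, -0.084 to 0.21, -0.16 to 0.11 and -0.032 to 0.15 for EEF1A1 at bases 638, 977 and 1213, -0.21 to 0.28, -0.74 to 0.055, -0.051 to 0.073 and -0.22 to 0.27 for EEF2 at bases 943, 1262, 2851 and 3127, and -0.66 to 1.71 for TPT1 at base 453.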

Other observations

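Some probes outside the 43 carry another gene name but are described on the array as copies or clusters of the same genes. A clustered EEF1A1 transcript read 184 and 193 in the high-fertile and 177 and 169 in the low-fertile arrays, a difference of -0.04 (limma adjusted p = 0.865), and LOC781070, annotated as EEF1A1-like, read 140 and 141 against 127 and 158 (0.10, adjusted p = 0.744). A clustered TPT1 transcript read 17.9 and 22.0 against 14.5 and 14.1 (-0.38, adjusted p = 0.146), and a predicted TPT1-like transcript read 41.5 and 30.7 against 34.1 and 31.9 (-0.03, adjusted p = 0.923). None of these passed the test.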
